A study of Medicago sativa with 15 samples.

Results

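In roots of alfalfa (Medicago sativa) seedlings under alkaline stress, 118 genes stood above all other libraries of the series in every library taken after 4 h. They were chosen by measured values. For each gene the count in a library was divided by the library total and scaled to CPM, the same total in every library. A gene was kept when its mean over the 3 libraries of 4 h was at least 10 CPM and the lowest CPM + 1 at 4 h was at least 2 times the highest CPM + 1 among the 12 other libraries. The 118 genes are 0.0717% of the 164632 gene IDs in the table, and 0.71% of the 16624 genes with a mean of at least 10 CPM at 4 h. The height at 4 h is therefore given by the choice of genes and is described without a test. Among control, 8 h, 12 h and 24 h the rule set only a ceiling, and differences among these groups were tested. The ceiling was taken from the same 12 libraries, so it also limits how high these genes could stand in any of them. Shares of called genes are printed beside those of all genes tested, which had no such ceiling, so that comparison is a description.

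RNA was sequenced from whole roots in 5 groups of 3 libraries. One group was kept under normal conditions, and the others were exposed to NaHCO3 at 50 mmol/L for 4, 8, 12 or 24 h. Groups follow the sample titles, because the treatment entry reads alkaline stress even for control roots. No group received sodium without bicarbonate, and control roots were taken at a single unstated time, so ion, pH, duration of stress and time of sampling cannot be told apart. The cultivar is not given in the labels, nor whether the replicates were separate plants or cultures, so the spread behind each p-value is that among the sequenced libraries and may be technical. The libraries held 6863315 to 15180708 counts.

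Bicarbonate buffers the solution around a root at an alkaline pH. High pH lowers the solubility of iron and phosphate and weakens the proton gradient by which root cells take up nutrients, and the salt itself brings a load of sodium. Plants commonly answer such a change with an early and short-lived set of transcripts, in which calcium signalling, reactive oxygen species, hormones of the ethylene and jasmonate pathways and transcription factors take part, before slower changes in transport and metabolism. Which of these roles the 118 genes have is not stated here. The files pair no ID with a gene name, 0 of the 164632 IDs matched the RefSeq table of alfalfa genes (assembly Bolivia_mono), and gene roles, root markers and sequences were not used here. Genes are therefore given by ID and coding length. Alfalfa is an autotetraploid, and reads of near-identical alleles and gene copies can be split among IDs, so the level of any single ID is uncertain to that extent.

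One library in each stressed group lay between the other 2 of its group at most genes. Among genes with a group mean of at least 10 CPM, 4 h replicate 2 lay between its partners at 79.2% of genes, 8 h replicate 3 at 76.0%, 12 h replicate 1 at 79.2% and 24 h replicate 1 at 72.1%. In the control group the shares were 39.0%, 38.1% and 22.9%. These 4 intermediate libraries also had the lowest totals, from 6863315 to 7621064 counts. Whether each of them is a separate library in its own right is not given in the labels. The SDs, the p-values and n = 3 count them as such, so a stressed group may hold only 2 independent libraries. Calls and counts of genes are given with and without them where this changes the result.

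At 4 h the 118 genes together took 1.17%, 1.10% and 1.05% of all counts in replicates 1, 2 and 3. In control roots they took 0.145%, 0.163% and 0.135%. The shares were 0.196%, 0.166% and 0.177% at 8 h, 0.157%, 0.222% and 0.108% at 12 h, and 0.136%, 0.114% and 0.163% at 24 h. The mean was 1.11 ± 0.0581% at 4 h (SD, n = 3) against 0.148 ± 0.0143% in control, and it was 0.180 ± 0.015%, 0.163 ± 0.0572% and 0.138 ± 0.0246% at the later times (SD, n = 3 each). The 8 h libraries lay just above the control libraries, and those of 12 and 24 h overlapped them. The ceiling in the rule holds all of these shares low, so the return is a description of the chosen genes. In libraries of whole roots, fewer cells of a type and less RNA per cell cannot be told apart. No library was taken before 4 h or between 4 and 8 h.

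**Figure D1:**
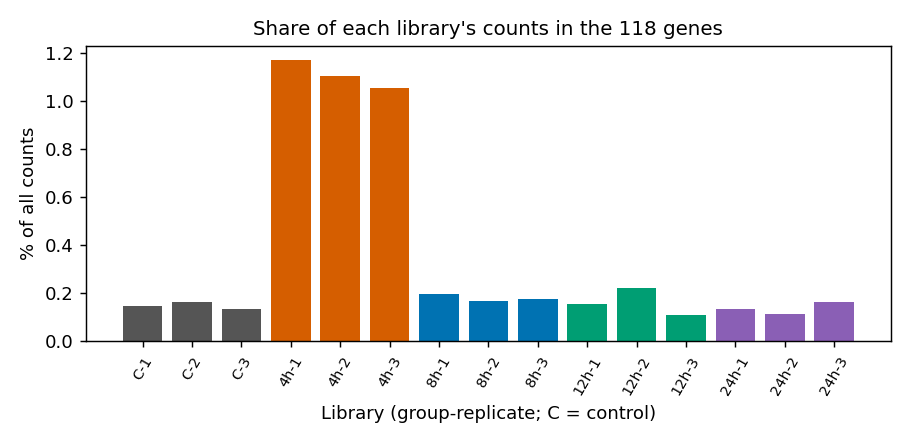
Share of each library's counts (%, y axis) that fell in the 118 genes, 1 bar per library (x axis, C is control). The 3 libraries of 4 h are at 1.05 to 1.17%, and the 12 others at 0.108 to 0.222%.

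A few genes carried much of this signal. The mean 4 h level ran from 10.5 to 1319.5 CPM with a median of 32.8 CPM, and the 5 most abundant genes held 42.0% of the summed mean. Per length, the mean 4 h level ran from 1.80 to 2008 FPKM with a median of 27.7 FPKM. By CPM, 29 genes were at 10 to 20, 44 at 20 to 50, 21 at 50 to 100, 17 at 100 to 300 and 7 above that. Most were already transcribed in unstressed roots: the control mean was under 1 CPM for 15 genes, 1 to 10 CPM for 71 and 10 CPM or more for 32, and each of the 118 had a count in at least 1 control library. The median over genes of the mean CPM + 1 at 4 h was 6.78 times that in control, 6.54 times that at 8 h, 6.82 times that at 12 h and 7.29 times that at 24 h.

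The lowest 4 h value over the highest other value ran from 2.01 to 11.9 with a median of 2.47. It was under 2.5 for 61 genes, at least 3 for 22 and at least 5 for 7. Just inside the threshold were genes at 2.008 and 2.009, and just outside were genes at 1.998 and 1.996, with 175 genes between 1.5 and 2. Of 171 genes with the ratio, 53 fell short of the abundance limit, the highest of them at 9.95 CPM against 10.5 CPM for the lowest gene kept. Genes thus lay close to the limits on both sides.

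The same rule applied to the other groups gave 786 genes for control, 22 for 8 h, 37 for 12 h and 76 for 24 h. Without the 4 intermediate libraries it gave 138 genes for 4 h, 115 of them among the 118, and 799, 36, 39 and 84 for control, 8 h, 12 h and 24 h. A ratio of 3 or more was reached by 18.6% of the 4 h genes and by 51.7% of the control genes.

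The height at 4 h differed between libraries. The highest of the 3 libraries was 1.48 times the lowest at the median gene, with a range of 1.03 to 7.92, and 60 genes stayed within 1.5-fold while 8 genes differed more than 3-fold. On the CPM + 1 scale the median was 1.46, against 2.16 over the 16624 genes, a difference that the rule favours because it asks for a high value in the lowest library. Replicate 1 was above replicate 3 at 67 genes and below it at 51. The lowest library was replicate 3 at 54 genes, replicate 1 at 43 and replicate 2 at 21. Replicate 2 lay between the others at 64.4% of the 118 genes.

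Replicates 1 and 3 alone gave longer lists, which follows from a rule that asks for a high value in 1 library in place of 3. With replicate 1 as the single 4 h library 1010 genes met the rule, and with replicate 3 alone 1263 did. They shared 120 genes, which is 11.9% of the first list and 9.50% of the second. This overlap is counted at the cutoff, so a gene just short of it in 1 replicate counts as unshared. No other overlap is given to compare it with. Of the 118 genes, 110 met the rule with replicate 1 alone and 111 with replicate 3 alone.

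**Figure D2:**
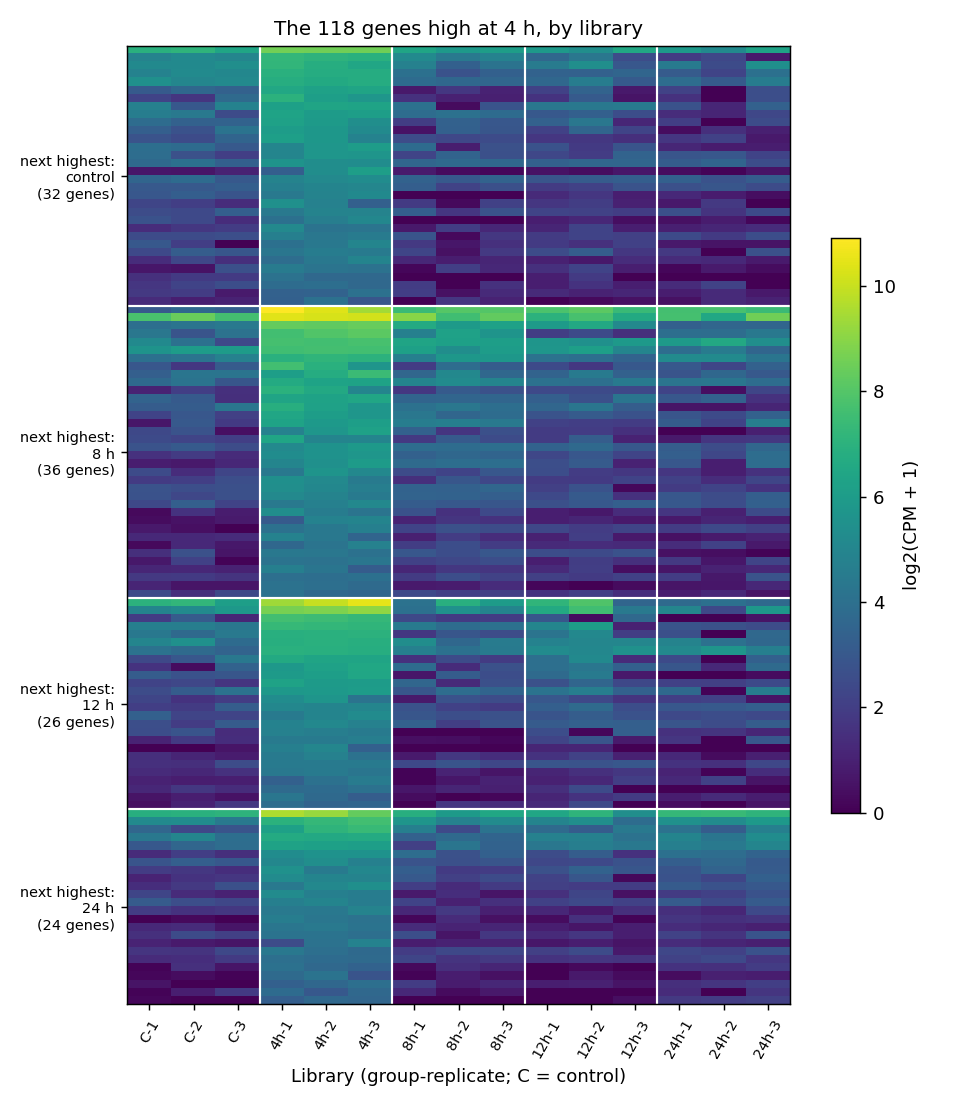
Level of each of the 118 genes (rows) in each of the 15 libraries (columns, C is control) as log2(CPM + 1), grouped by the group with the next highest mean and sorted by mean 4 h level within each. The 4 h columns are brighter than the rest in every row by the choice of genes, and the rows differ in which other group comes next.

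Outside 4 h the genes had no common order. The group with the next highest mean was 8 h for 36 genes, control for 32, 12 h for 26 and 24 h for 24, which is 30.5%, 27.1%, 22.0% and 20.3% of the 118, against 26.3%, 28.7%, 23.2% and 21.8% of the 16624 genes. The group with the lowest mean was 24 h for 42 genes, control for 28, 8 h for 25 and 12 h for 23. Without the intermediate libraries the next highest was 8 h for 33 genes, control for 31, 12 h for 30 and 24 h for 24, and the lowest was 24 h for 44, control for 29, 8 h for 26 and 12 h for 19. The single library that set the ceiling was 12 h replicate 2 at 20 genes and 24 h replicate 3 at 18, or 16.9% and 15.3%, against 14.5% and 9.31% of the 16624 genes. The median control level was 4.01 CPM, and the medians at 8, 12 and 24 h were 4.73, 4.35 and 3.11 CPM. At 8 h 6 genes had no count in any library, against 1 at 12 h and 3 at 24 h. For the lowest group mean and for genes without a count, the share over the 16624 genes was not computed. Whether these counts are particular to the 118 genes was therefore not tested.

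The coding lengths ran from 288 to 10920 nt with a median of 1389 nt, against 1239 nt for the 16624 genes. Lengths of 2000 nt or more were held by 37 genes, or 31.4%, against 21.9% of the 16624. Lengths come from the deposited tables and are a description, with no test.

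The most abundant gene at 4 h, by CPM and per length, was MS.gene04663, with a coding length of 657 nt. In control roots it was at 7.22, 11.5 and 8.79 CPM. At 4 h it was at 1929, 1347 and 682 CPM in replicates 1, 2 and 3. It was at 175, 258 and 255 CPM at 8 h, at 222, 283 and 167 CPM at 12 h, and at 200, 216 and 172 CPM at 24 h. The control libraries were the lowest and the 4 h libraries the highest, and the 9 later libraries overlapped one another between these levels. Its pooled level at 4 h was 141 times that in control, and a high level was still present at the end of the series.

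The gene with the largest gap between 4 h and all else was MS.gene016351, of 1158 nt. It was at 197, 180 and 153 CPM at 4 h, 11.9 times the highest other library on the CPM + 1 scale. In control it was at 2.80, 7.85 and 1.24 CPM, at 8 h at 4.11, 2.57 and 2.89 CPM, and at 12 h at 6.56, 0.303 and 12.0 CPM. At 24 h it was at 0, 0 and 0.478 CPM, below every control library. The 24 h level against control had a log2 fold change of -4.32 ± 1.37 (SE) and an adjusted p of 0.0512 in edgeR, which missed the threshold of 0.05. All 7 counts at 24 h were in replicate 3.

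**Figure D3:**
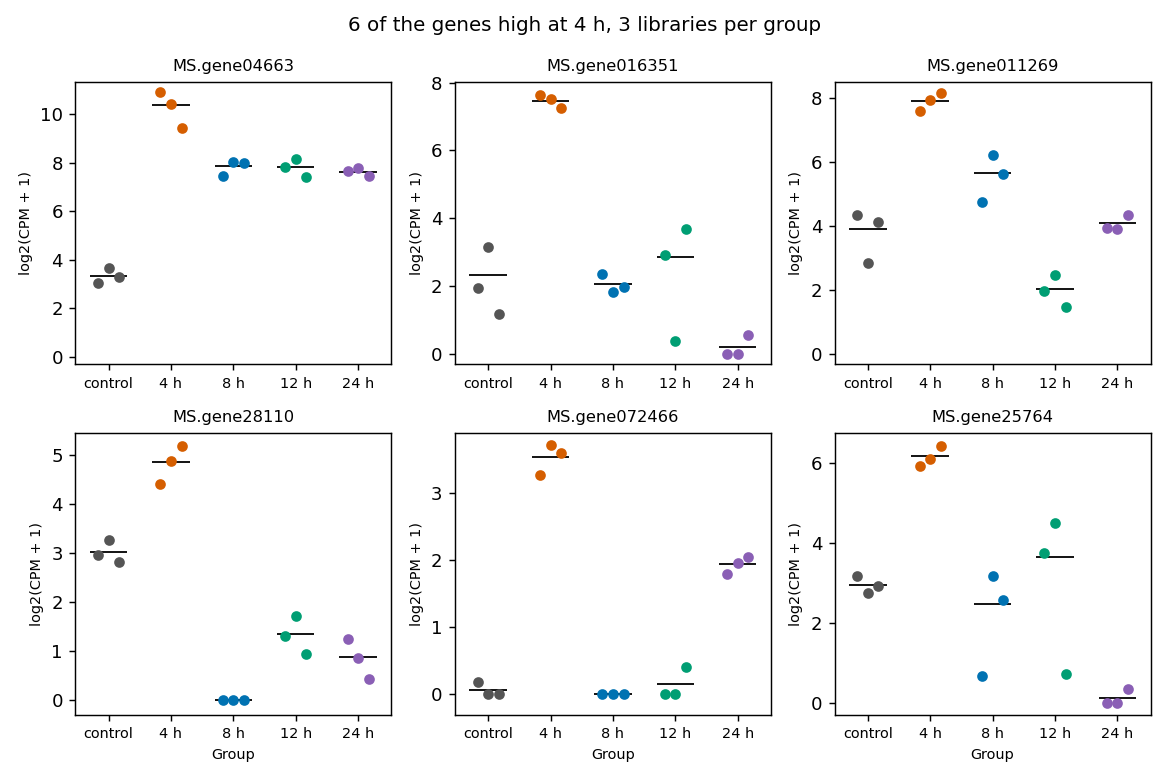
Level of 6 of the genes as log2(CPM + 1) in each library (points) with the group's mean CPM on the same scale (line), 3 libraries per group, with a y axis of its own in each panel. MS.gene04663 stays far above control from 8 to 24 h, and MS.gene28110 is at 0 in all 3 libraries of 8 h.

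Of the 118 genes, 116 passed the filter on low counts in a fit of the 12 control, 8 h, 12 h and 24 h libraries, in which the 4 h libraries had no part. The other 2 had at most 12 and 16 counts in any of these libraries, with means of 39.1 and 21.95 CPM at 4 h. A gene is called where the adjusted p of edgeR's quasi-likelihood test over all 65791 genes tested was at most 0.05. Of the 116 genes, 30 (25.9%) were called against control at 8, 12 or 24 h, and 86 at none of these times. Of all genes tested 25.2% were called at 1 or more of these times, so the share is near the background. Higher at 1 or more times were 14 genes (12.1%, beside 9.97% of all genes), and lower were 17 (14.7%, beside 15.3%), with 1 gene in both counts. The word peak fits all 118 genes by the rule, though these 14 were called above control at a later time as well. Without the intermediate libraries, 1 gene was called higher, MS.gene04663 at each of the 3 times, and 1 lower, MS.gene28110 at 8 h.

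At 8 h against control 11 of the 116 genes were higher and 5 lower. These are 9.48% and 4.31% of the genes, beside 6.42% and 9.15% of all genes tested. The median log2 fold change was 0.07, against -0.09 over all genes tested. At an unadjusted p under 0.05 there were 27 genes, or 23.3%, against 31.5% of all genes. The share higher was thus above the background and the share lower was under it. The ceiling of the rule also bound the control libraries, which can lower the share of falls from control. Neither difference is therefore read as a trait of these genes. Without the 3 intermediate libraries of the later groups, 2 of the 116 genes were called, beside 0.467% of all 69309 genes then tested.

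The strongest rises at 8 h were those of MS.gene04663 and MS.gene81061. The level of MS.gene04663 was 24.7 times that in control, with a log2 fold change of 4.69 ± 0.379 (SE) and an adjusted p of 0.000195 in edgeR. This call held in all 28 alternatives, with an adjusted p of 0.0279 without the intermediate libraries. MS.gene81061, of 3201 nt, was at 0.841, 0.666 and 1.33 CPM in control, at 29.8, 43.7 and 61.7 CPM at 4 h and at 12.5, 14.2 and 14.3 CPM at 8 h. Its 8 h libraries lay close together and above all control libraries. At 12 h it was at 5.10, 7.73 and 1.07 CPM, all below the 8 h libraries, with replicate 3 within the range of control. At 24 h it was at 6.73, 0.880 and 14.1 CPM, where the libraries were spread over the ranges of control and 8 h. Its log2 fold change at 8 h was 3.88 ± 0.901 (SE, adjusted p = 0.0132, edgeR), and the adjusted p was 0.129 without the intermediate libraries, 0.0512 without control replicate 1 and 0.0552 without control replicate 2.

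Other genes were high at 4 h and then undetected at 8 h. MS.gene28110, of 300 nt, was at 6.73, 8.59 and 6.04 CPM in control and at 20.1, 28.2 and 35.4 CPM at 4 h. No count was found in any of the 3 libraries of 8 h, against 280 counts in control. At 12 h it was at 1.46, 2.27 and 0.901 CPM and at 24 h at 1.37, 0.800 and 0.341 CPM, so all 9 later libraries lay below all control libraries. Set against a floor of 3 counts over the 8 h group, its level was at least 87.1-fold lower than in control (adjusted p = 0.00126, edgeR), and the call held in all 28 alternatives. At 24 h it was 9.88 times lower than in control (log2 fold change -3.03 ± 0.748 SE, adjusted p = 0.0223, edgeR). That later call was lost without the intermediate libraries (adjusted p = 0.172), without control replicate 1 (0.0505) or 2 (0.0666), and without any 1 library of 24 h (0.0609 to 0.0648).

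MS.gene25617, of 375 nt, had the same course up to 8 h. It was at 4.91, 6.22 and 1.60 CPM in control, at 27.2, 24.3 and 21.2 CPM at 4 h, and without a count in all 3 libraries of 8 h. Its level at 8 h was at least 53.5-fold lower than in control (adjusted p = 0.00972, edgeR), with an adjusted p of 0.114 without the intermediate libraries. It was at 4.95, 0.152 and 8.85 CPM at 12 h and at 1.92, 2.08 and 1.23 CPM at 24 h. All libraries of both later times thus held counts, with a wide spread at 12 h. The fitted log2 fold change of a gene without counts depends on a prior count, so the bounds are given in its place.

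The count at 8 h depended on single libraries. Leaving out control replicate 1 gave 10 genes and control replicate 3 gave 8. Among stressed libraries, 10 genes were called when 8 h replicate 2, 12 h replicate 1 or 24 h replicate 1 was left out, and 8 when 8 h replicate 3 was. The share of all genes called in these fits is not given. Whether the change is particular to these genes was therefore not tested.

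**Figure D4:**
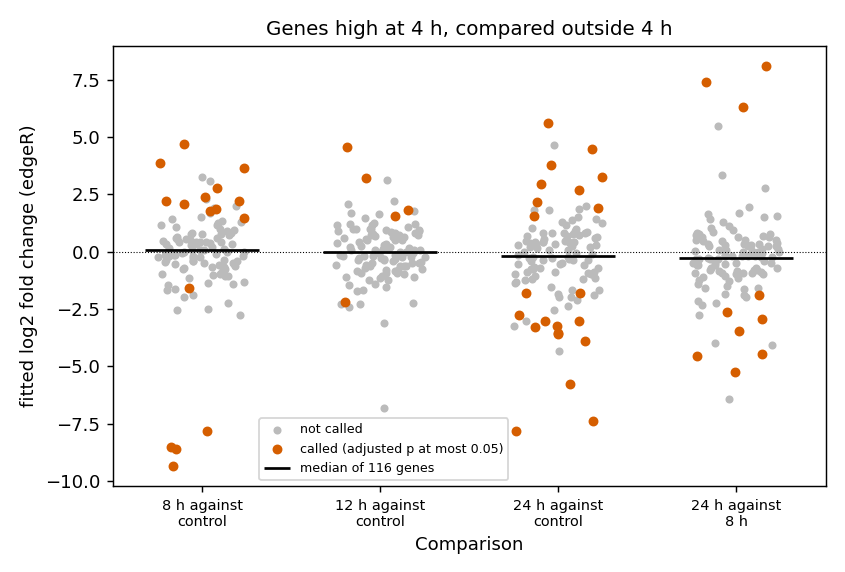
Fitted log2 fold change (y axis) of the 116 tested genes in 4 comparisons that leave 4 h out (x axis), with called genes coloured and the median as a line. The medians are 0.07, -0.02, -0.18 and -0.26, and the points beyond about 6 on either side belong to genes without counts in 1 group, whose fitted value depends on a prior count.

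At 12 h against control 4 of the 116 genes were higher and 1 lower, or 3.45% and 0.862%, beside 3.88% and 5.76% of all genes tested. The median log2 fold change was -0.02, against 0.01 over all genes. At an unadjusted p under 0.05 there were 19 genes, or 16.4%, against 26.4% of all genes. The share higher was near the background and the share lower under it, where the same limit of the ceiling applies. Without the intermediate libraries 1 gene was called, beside 0.0765% of all genes tested. The number called fell to 2 genes when control replicate 2 or 12 h replicate 3 was left out. It fell to 3 for control replicate 3, 8 h replicate 3 or 24 h replicate 1, and to 1 for 12 h replicate 1. The share over all genes with a library left out is not given here either.

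The rises at 12 h were led by MS.gene04663, at 24.8 times the control level (log2 fold change 4.59 ± 0.377 SE, adjusted p = 0.00032, edgeR), which held in all 28 alternatives with an adjusted p of 0.0479 without the intermediate libraries. Next came MS.gene31068, of 1200 nt. It was at 0.701, 0.370 and 0 CPM in control, at 15.8, 19.97 and 25.3 CPM at 4 h, at 3.53, 5.60 and 4.72 CPM at 8 h, at 3.93, 2.80 and 3.69 CPM at 12 h and at 2.89, 4.24 and 3.14 CPM at 24 h. All later libraries lay above all control libraries, and the 3 later groups overlapped. The log2 fold changes were 3.67 ± 0.858, 3.21 ± 0.846 and 3.27 ± 0.847 (SE) at 8, 12 and 24 h, with adjusted p of 0.0136, 0.0319 and 0.0228 in edgeR. MS.gene04663 and MS.gene31068 were the 2 genes (1.72%) called higher at all 3 later times, beside 1.74% of all genes. For MS.gene31068 the 8 h call was lost without the intermediate libraries (adjusted p = 0.157). The 24 h call was lost without them (0.198), without control replicate 2 (0.0711) and without 24 h replicate 1 (0.0628) or 2 (0.056). The 12 h call of MS.gene31068 was lost without the intermediate libraries (adjusted p = 0.278), without control replicate 2 (0.0948), 8 h replicate 3 (0.0599), 12 h replicate 1 (0.0993), 12 h replicate 3 (0.063) or 24 h replicate 1 (0.0575).

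One gene was above control at 8 h and below it at 12 h. MS.gene011269, of 648 nt, was at 19.2, 6.22 and 16.4 CPM in control and at 195, 246 and 285 CPM at 4 h. It was at 26.1, 74.3 and 48.7 CPM at 8 h, above all control libraries, and at 2.91, 4.55 and 1.80 CPM at 12 h, below all of them. At 24 h it was at 14.4, 14.1 and 19.4 CPM, within the range of control except for a slightly higher replicate 3. The log2 fold change was 1.87 ± 0.522 (SE, adjusted p = 0.0298, edgeR) at 8 h, -2.21 ± 0.538 (adjusted p = 0.023) at 12 h and 0.25 ± 0.508 (adjusted p = 0.778) at 24 h. The rise at 8 h was not called without the intermediate libraries (adjusted p = 0.209), without control replicate 2 (0.0937) or 3 (0.0568), 8 h replicate 2 (0.107) or 3 (0.0803), or 24 h replicate 1 (0.055). The fall at 12 h was not called without the intermediate libraries (adjusted p = 0.277), without control replicate 1 (0.0786), control replicate 3 (0.0561), 12 h replicate 1 (0.108) or 12 h replicate 3 (0.0729).

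At 24 h against control 9 of the 116 genes were higher and 13 lower, or 7.76% and 11.2%, beside 5.77% and 8.43% of all genes tested. The median log2 fold change was -0.18, against -0.06 over all genes. At an unadjusted p under 0.05 there were 34 genes, or 29.3%, against 30.2% of all genes. The shares called were a little above the background and this share a little under it, so none is read as raised. Both at 8 and at 24 h, 6 genes (5.17%) were higher and 2 (1.72%) lower, beside 3.21% and 4.03% of all genes, in comparisons that share the control libraries. Without the intermediate libraries 1 gene was called, beside 0.606% of all genes tested. Leaving out 1 control library gave 12, 10 or 14 genes in the order of their numbers, leaving out 12 h replicate 1 gave 14, and leaving out 1 library of 24 h gave 4, 7 or 11. For these omissions too, the share over all genes is not given.

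The highest fitted log2 fold change at 24 h was that of MS.gene072466, of 2916 nt, which by CPM was also the least abundant of the 118 genes at 4 h. It was at 0.140, 0 and 0 CPM in control, at 8.55, 12.0 and 11.01 CPM at 4 h, without a count at 8 h, at 0, 0 and 0.328 CPM at 12 h and at 2.47, 2.88 and 3.14 CPM at 24 h. The 24 h libraries lay close together and above every library of control, 8 h and 12 h. The gene was thus high in the 4 h libraries, near 0 in those of 8 and 12 h, and detected in those of 24 h. There were 100 counts at 24 h and 2 in control, a ratio of 56.7 with an exact 95% interval of 15.3 to 475 that covers counting error only. The adjusted p was 0.0326 in edgeR. It was 0.198 without the intermediate libraries, 0.0556, 0.101 and 0.0878 without control replicates 1, 2 and 3, 0.0522 without 12 h replicate 1, and 0.096, 0.0707 and 0.078 without 24 h replicates 1, 2 and 3. MS.gene04663 had the next highest fitted value, at 21.2 times the control level, which lies within that interval (log2 fold change 4.49 ± 0.375 SE, adjusted p = 0.000145, edgeR). It was called in all 28 alternatives with an adjusted p of 0.0234 without the intermediate libraries.

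The lowest log2 fold changes at 24 h were those of genes without a count in any 24 h library. MS.gene66776, of 885 nt, was at 1.89, 2.67 and 2.66 CPM in control, at 16.4, 11.9 and 11.9 CPM at 4 h, without a count at 8 h, at 0.874, 2.65 and 0 CPM at 12 h and without a count at 24 h. Its level was at least 28.9-fold lower than in control at 8 h (adjusted p = 0.03, edgeR) and at least 27.3-fold lower at 24 h (adjusted p = 0.0326, edgeR). The 8 h call was lost without the intermediate libraries (adjusted p = 0.188), without any 1 control library (0.0604 to 0.0677), without any 1 library of 8 h (0.0701 to 0.0886) and without 12 h replicate 1 (0.0529). The 24 h call was lost without the intermediate libraries (adjusted p = 0.201), without any 1 control library (0.0621 to 0.0732), without 12 h replicate 1 (0.0552) and without any 1 library of 24 h (0.0753 to 0.0946).

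MS.gene004152, of 1863 nt, was at 1.33, 2.44 and 1.60 CPM in control, at 12.6, 13.1 and 16.0 CPM at 4 h, at 0.588, 1.19 and 0.919 CPM at 8 h, at 1.75, 4.55 and 0 CPM at 12 h and without a count at 24 h. Its level at 24 h was at least 20.6-fold lower than in control (adjusted p = 0.0261, edgeR). The call was lost without the intermediate libraries (adjusted p = 0.2), without control replicate 2 (0.0617) and on omission of 24 h replicates 1, 2 or 3 (0.0808, 0.0665 and 0.0707).

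A direct comparison of 24 h with 8 h had 3 of the 116 genes higher and 7 lower at 24 h, or 2.59% and 6.03%, beside 2.22% and 2.03% of all genes tested. The median log2 fold change was -0.26, against 0 over all genes, and 30 genes, or 25.9%, had an unadjusted p under 0.05, against 23.1% of all genes. The share higher was near the background and the share lower above it, though all genes tested had no ceiling. Without the intermediate libraries edgeR called 0 of the 116 genes, beside 0% of all genes tested, with 13 of the 116 (11.2%) at an unadjusted p under 0.05, against 7.99% of all genes. On the same libraries limma-voom called 0 of the 116 beside 0% of all genes, and DESeq2 5 beside 1.73%. Leaving out control replicate 2 gave 6 genes, leaving out 1 library of 8 h gave 6, 6 or 2 in the order of their numbers, 12 h replicate 1 gave 5, and 1 library of 24 h gave 2, 5 or 6. For single omitted libraries the share over all genes is again not given.

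The genes furthest above 8 h at 24 h were MS.gene072466 and MS.gene25617, both without a count at 8 h. Against a floor of 3 counts over the 8 h group, MS.gene072466 was at least 35.3-fold higher at 24 h (adjusted p = 0.0386, edgeR) and MS.gene25617 at least 20.4-fold higher (adjusted p = 0.0424, edgeR). The first was called in 12 of 25 alternatives and the second in 11 of 28. Both calls were lost without control replicate 1 or 2, without any 1 library of 8 h, without 12 h replicate 1 and without any 1 library of 24 h. The adjusted p then ran from 0.0502 to 0.137 for the first and from 0.0601 to 0.131 for the second. MS.gene25617 was also lost without control replicate 3 (0.0501).

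The genes furthest below 8 h at 24 h were MS.gene25764 and MS.gene040553. MS.gene25764, of 2577 nt, was at 7.99, 5.70 and 6.57 CPM in control, at 60.2, 67.5 and 85.7 CPM at 4 h, at 0.588, 8.10 and 4.99 CPM at 8 h, at 12.5, 21.6 and 0.656 CPM at 12 h and at 0, 0 and 0.273 CPM at 24 h. The 24 h libraries lay below all others, while 8 h and 12 h were widely spread. The pooled level at 24 h was 39.9 times lower than at 8 h (log2 fold change -5.26 ± 1.37 SE, adjusted p = 0.0488, edgeR) and 58.4 times lower than in control (-5.79 ± 1.39 SE, adjusted p = 0.0165, edgeR). The 24 h group held 4 counts, all in replicate 3, so both folds rest on that library. Without it no count is left at 24 h and the fitted log2 fold change against 8 h was -8.75, a value that depends on a prior count. The comparison with 8 h was called in 9 of 27 alternatives, and was lost without the intermediate libraries (adjusted p = 0.577) and without each of the control libraries, 8 h replicates 2 and 3, 12 h replicate 1 and each of the 24 h libraries (adjusted p from 0.0574 to 0.171). The comparison with control was lost without the intermediate libraries (adjusted p = 0.177) and without 24 h replicate 1 (0.0724) or 2 (0.057).

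MS.gene040553, of 540 nt, was at 1.75, 5.48 and 0.533 CPM in control, at 19.8, 19.0 and 15.8 CPM at 4 h, at 6.76, 4.94 and 6.82 CPM at 8 h, at 4.95, 4.47 and 5.82 CPM at 12 h and at 0.412, 0.320 and 0.068 CPM at 24 h. Its 8 h and 12 h libraries overlapped, and its 24 h libraries lay below all others. The level at 24 h was 25.9 times lower than at 8 h (log2 fold change -4.53 ± 0.914 SE, adjusted p = 0.0208, edgeR) and 11.6 times lower than in control (-3.23 ± 0.883 SE, adjusted p = 0.0286, edgeR). The fall from 8 h was called in 21 of 28 alternatives, and was lost without the intermediate libraries (adjusted p = 0.497), without 8 h replicate 3 (0.073) or 24 h replicates 1, 2 or 3 (0.0876, 0.0572 and 0.0573). The fall from control was lost without the intermediate libraries (adjusted p = 0.211), without control replicate 2 (0.13) and without any 1 library of 24 h (0.0657 to 0.0884). Both comparisons share the 24 h libraries.

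Among the 118 genes 6 had an equal coding length of 936 nt and IDs within 7 consecutive numbers. This was seen after the values were known, and is a description with no test. What the order of the ID numbers stands for is not given in the sources used here. In all, 183 genes with a count have this length. The 6 genes together were at 14.4, 12.1 and 12.1 CPM in control, at 232, 161 and 98.4 CPM at 4 h, at 6.76, 23.9 and 16.3 CPM at 8 h, at 15.3, 25.5 and 6.06 CPM at 12 h and at 7.01, 8.80 and 7.85 CPM at 24 h. The summed means were 12.9 ± 1.37 CPM in control and 164 ± 66.9 CPM at 4 h, then 15.7 ± 8.59, 15.6 ± 9.74 and 7.89 ± 0.897 CPM (SD, n = 3 each).

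At 4 h the single genes of this run had means of 17.1 to 48.1 CPM, and outside 4 h no library exceeded 8.18 CPM. Their ratios of lowest 4 h to highest other value lay between 2.22 and 3.89. All 6 were higher in 4 h replicate 1 than in replicate 3, by 1.31 to 3.09 times, and all 6 had their lowest group mean at 24 h. The other ID in the run, of 534 nt, was at 24.3, 9.08 and 6.95 CPM at 4 h and at most 3.55 CPM elsewhere, and with a ratio of 1.75 it is not among the 118. Where copies of equal length are near-identical, reads can be split among them, which was not tested.

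**Figure D5:**
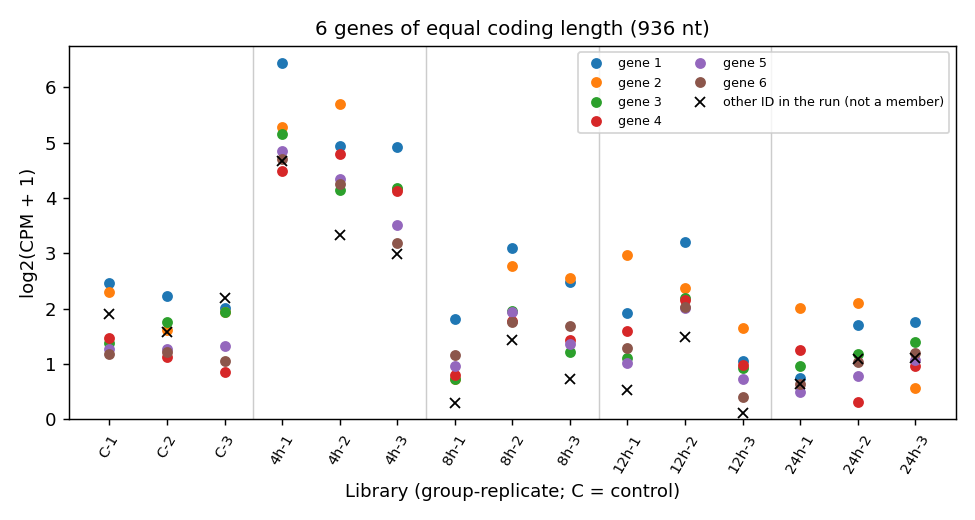
Level as log2(CPM + 1) (y axis) of the 6 genes of equal coding length, and of the other ID within the same run of numbers (crosses), in each of the 15 libraries (x axis, C is control). All 7 are highest at 4 h, and in each of them 4 h replicate 1 is above replicate 3.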

How the data were processed

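The members and comparisons were chosen with earlier results of these data known, so no list, rule or test is independent of them. Counts per gene ID, whole numbers deposited by the authors, were used for all levels and tests. FPKM deposited by the authors was used for levels per length and for an alternative fit. In each gene with a count both tables gave 1 length, within 0.01 nt, and because 95.96% of these can be divided by 3, coding length is the term used. No source used here names the aligner, counting tool, strand setting or genome build. Per the labels' protocols, total RNA of roots went into a SMARTer mRNA library kit. Groups and replicate numbers came from sample titles.

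edgeR 4.0.16 (R 4.3.3; filterByExpr, TMM, glmQLFit, glmQLFTest, two-sided, Benjamini-Hochberg over all 65791 genes tested) was fitted to the 12 libraries outside 4 h, with 3 per group. The SE is the size of the log2 fold change divided by the square root of F. Folds are ratios of pooled CPM, and, beside a group with no count, bounds against 3 counts over the group. IDs named are, at 4 h, the most abundant gene and the gene with the largest ratio, and in each later comparison the called genes with the 2 highest and 2 lowest log2 fold changes. Alternatives used DESeq2 1.42.0, limma 3.58.1 (voom, or log2(FPKM + 1) and log2(FPKM + 0.1)), other scalings and filters, other sets of libraries, a replicate block and each library left out. Total counts of 6863315 to 15180708 limit what can be detected in genes near 0, and intervals and floors hold counting error alone: without molecular identifiers, several reads may come from 1 molecule.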

Additional observations from a re-analysis of the deposited data

Results flagged for a closer look

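The direct comparison of 24 h with 8 h tests whether the effects at these times, each against the same control, differ. It called 10 of the 116 genes, 3 higher and 7 lower at 24 h (edgeR, 3 libraries per group), beside 2.22% and 2.03% of all genes tested. The fitted log2 fold change, 24 h against 8 h, was 8.11 for MS.gene072466 and 7.42 for MS.gene25617, both without a count at 8 h, so these values depend on a prior count. It was -5.26 for MS.gene25764 and -4.53 for MS.gene040553. All 3 libraries of 24 h lay on the same side of all 3 libraries of 8 h in each of the 4 genes. None of the 10 was called by edgeR without the intermediate libraries, where 13 of 116 (11.2%, against 7.99% of all genes) had an unadjusted p under 0.05. There limma-voom called 0 of the 116 beside 0% of all genes, and DESeq2 5 beside 1.73%.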

How the results depend on the processing

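The number of genes that met the rule was 118. It was 118 to 155 with other scalings, a pseudocount of 0.1, a mean of 5 CPM or without the 4 intermediate libraries, and 89 with a mean of 20 CPM. It was 67 with a pseudocount of 5, 22 with a ratio of 3, 293 with a ratio of 1.5, and 1010 and 1263 with 4 h replicate 1 or 3 as the only 4 h library, a choice made after seeing the data. With each library left out it ran from 118 to 457, where omission of 4 h replicate 1, 2 or 3 gave 457, 133 and 350. The rule sets the lowest 4 h library against the highest other one, so an omission cannot lower a gene's ratio. Genes could be lost only through the mean at 4 h, so the direction is largely set by the rule. Why the 4 h replicates differed in size of effect was not tested.

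Of the genes called, 16 at 8 h became 2 without the 3 intermediate libraries (2 in limma-voom and 10 in DESeq2, both chosen after seeing the data), 10 with the replicate block, 5 at a threshold of 0.01, and 8 to 18 with each library left out. The 5 at 12 h became 11 in DESeq2, 8 in limma on log2(FPKM + 1) with a filter, 3 with only the groups compared, 1 without the intermediate libraries (1 in limma-voom, 2 in DESeq2), 3 with the replicate block, 1 at a threshold of 0.01, and 1 to 7 with each library left out. The 22 at 24 h became 1 without the intermediate libraries (1 in limma-voom, 12 in DESeq2), 17 with the replicate block, 3 at a threshold of 0.01, and 4 to 25 with each library left out. The 10 in 24 h against 8 h became 21 in DESeq2, 0 without the intermediate libraries (0 in limma-voom, 5 in DESeq2), 5 with the replicate block, 2 at a threshold of 0.01, and 2 to 14 with each library left out. Calls over all genes fell as well. Without the intermediate libraries edgeR called 0.467% of all genes tested at 8 h, 0.0765% at 12 h and 0.606% at 24 h. In 24 h against 8 h it called 0%. For the replicate block, the stricter threshold and single omitted libraries the share over all genes is not given. These changes are therefore not read as a trait of the 116 genes, and the cause was not tested. Other scalings and filters moved these counts by less than 1.5 times.

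Deviations from group means correlated between -0.0354 and 0.097 for equal replicate numbers and between -0.0491 and 0.0998 for unequal ones. Equal numbers were thus no more alike than unequal ones. With 3 libraries per group this cannot exclude a shared batch. The highest values were those among the 3 intermediate libraries of 8, 12 and 24 h. They were 0.0998 for 8 h replicate 3 with 12 h replicate 1 and 0.097 for 12 h replicate 1 with 24 h replicate 1. For 8 h replicate 3 with 24 h replicate 1 the value was 0.0968. No other pair was above 0.0407, so the highest value for equal numbers comes from this set. No named gene changed direction in any alternative, with 466 values that kept their call and 196 that lost it. The genes near 0 are limited by depth.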

Other observations

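Outside 4 h, few of the genes followed MS.gene04663, the most abundant at 4 h. Over the 12 libraries outside 4 h the Spearman correlation of CPM with it was 0.846, 0.727 and 0.699 for the 3 genes most like it, and 0.0925 at the median of the others. These values are a description, since the libraries share group, depth and replicate structure. The 3 genes had means of 21.6, 18.7 and 83.9 CPM at 4 h, 0.478, 0.746 and 2.01 CPM in control, and 0.925, 1.87 and 2.59 CPM at 24 h. Each was thus above its control mean at 24 h, though by far less than MS.gene04663.

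Of the 118 genes, 14 (11.9%) had IDs with consecutive numbers, in 5 runs. Under the same rule the share was 19.5% of 786 genes for control and 2.63% of 76 for 24 h. It was 0% of 22 genes for 8 h and 0% of 37 for 12 h. A longer list more readily holds consecutive numbers, so the order of these shares is not read as a trait of the groups. A run of 3 had coding lengths of 2178, 2175 and 2178 nt. In the order of their numbers these genes were at 376 ± 6.05, 112 ± 6.86 and 70.0 ± 8.34 CPM at 4 h (SD, n = 3 each). In control they were at 114 ± 27.6, 32.3 ± 4.63 and 16.2 ± 10.1 CPM, and at 24 h at 56.6 ± 21.2, 9.03 ± 5.96 and 2.27 ± 1.48 CPM. All 3 had a lower mean at 24 h than in control. The runs were picked after their values were seen and have no test.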
